A study of Mus musculus with 6 samples.

Results

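Apoe, Apod and Clu encode secreted carriers of lipid, Lrp1 a receptor that takes such particles up, Abca1 and Abcg1 pumps that load them with cholesterol, and Lpl a lipase that works on their triglyceride. These 7 genes, of 57180 gene identifiers in the files, were followed through RNA-seq of corneal endothelial cells from mice. They were chosen by symbol and role, as apolipoproteins, clusterin, their receptor and lipid export partners, with earlier results of these libraries known. Their levels and group differences are therefore a description. All 7 passed the filter on low counts.

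The cells came from corneas of mice homozygous for the Q455K allele of Col8a2 (Col8a2Q455K/Q455K), a collagen gene of Descemet membrane. This genotype is used as a model of Fuchs endothelial corneal dystrophy and is shared by every library here. The Col8a2 group has 3 libraries of this genotype with no treatment, and the Tcf4+/- group has 3 libraries labelled Col8a2Q455K/Q455K/Tcf4+/-, with a heterozygous knockout of the E protein gene Tcf4 on top. The sources used here do not give age, sex, the design of the knockout allele or whether corneas were pooled, so p-values and standard errors measure only the spread between these libraries, which may be technical. The comparison asks what the loss of 1 Tcf4 allele changes in this model, and no library without the Col8a2 mutation was used.

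Lipids travel outside cells in particles wrapped in apolipoproteins. ABCA1 and ABCG1 hand cholesterol from the cell to such particles, apolipoprotein E is the ligand by which LRP1 and other receptors of the LDL receptor family take them in, and lipoprotein lipase frees fatty acids from them. Clusterin, also called apolipoprotein J, is in addition an extracellular chaperone of misfolded protein and is known from the deposits of Fuchs dystrophy. Apolipoprotein D is a lipocalin, a small carrier of hydrophobic molecules that is made by many fibroblast-like and glial cells. Abca1, Abcg1, Apoe and Lpl are textbook targets of the liver X receptors (LXR), nuclear receptors that sense oxysterols.

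E proteins such as TCF4 bind E-boxes, whose letters are CANNTG. The RefSeq promoter windows of build GRCm38.p6 were searched over the 250 bases before each start, and 4 of the 7 genes had a window (Abca1, Apoe, Apod and Lrp1). CANNTG reads the same on both strands and was found in 66.2% of the 32851 windows of all genes, so a match is common. These are the matches in the 4 genes, shown with 10 bases on either side, 5′ to 3′ on the gene's strand, with the E-box in capitals.

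Abca1 (chr4:53160027-53160052, minus strand): gccatgtctcCACGTGctttctgctg

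Apoe (chr7:19698818-19698843, minus strand): agagtcagagCAGGTGgaggggttac

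Apod (chr16:31314966-31314991, minus strand): aaataaatacCAGATGtttggaagca

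They begin 147, 212 and 173 bases before the annotated start. The Apoe match lies before 1 of its 3 annotated starts and is of the form CAGGTG, whose reverse reading is CACCTG. Either form of it occurred in 17.2% of all windows. Lrp1 had no E-box in its window. For LXR, a DR4 element, the paired repeat that these receptors bind, was also searched on both strands with up to 3 of the 12 fixed letters differing. Abca1 held 1 match, from 67 to 52 bases before its start on the opposite strand, and the windows of the other 3 genes held none. It is printed with the paired repeats in capitals.

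Abca1 (chr4:53159947-53159962, plus strand): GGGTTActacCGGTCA

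At this tolerance 18.5% of all windows held a match. A match describes letters and not binding, and the coordinates belong to GRCm38.p6, whereas the deposited values were made on GRCm39.

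The libraries held 30344161 to 54265479 estimated counts and 19680 to 22538 genes with a count. The level of Tcf4 was not lower under the label Tcf4+/- and stood at 313, 469.6 and 430.2 CPM (counts scaled by TMM to a common library size) in Col8a2 replicates 1 to 3 and at 440.4, 599 and 373 CPM in Tcf4+/- replicates 1 to 3. Which part of the gene the allele lacks is not stated, so a count over the whole gene may not check the label. Groups are therefore named by label, and every direction below is between libraries so labelled. All 15 corneal endothelium markers had counts in every library, with a summed level of 13127 to 18869 CPM across Col8a2 libraries and 11193 to 18578 CPM across Tcf4+/- libraries. Markers of neighbouring tissues were present as well, among them stromal keratocytes (9230.0 to 18531 and 13027 to 21184 CPM in the same order) and corneal epithelium (3171 to 6777 and 2465 to 6858 CPM). Summed lens markers reached 4198 and 11172 CPM in Tcf4+/- replicates 2 and 3 and at most 628 CPM elsewhere. Over the Col8a2 and Tcf4+/- groups, erythroid markers summed to 531 to 1967 and 1362 to 6127 CPM, retina and neuron markers to 2361 to 3420 and 2309 to 9846 CPM and Schwann cell markers to 207 to 298 and 266 to 377 CPM. In bulk RNA, fewer cells of a type and less RNA per cell cannot be told apart.

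The secreted carriers were among the most abundant messages in these libraries, and the pumps and the lipase were far lower. Which of the cells present made them was not tested. On the TPM scale, which corrects for transcript length, Apoe averaged 11588 ± 6760 TPM (SD, n = 6 libraries of both groups) and ranked between the 2nd and the 23rd of 21793 protein-coding genes. Apod averaged 1905 ± 869 TPM and Clu 1678 ± 867 TPM. Lrp1 followed with 170.0 ± 81.5 TPM, then Lpl with 9.74 ± 6.12, Abca1 with 8.38 ± 3.27 and Abcg1 with 8.32 ± 2.09 TPM.

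This order was firm at some steps and not at others. Within a library, Apoe exceeded Apod in 6 of 6 libraries, by 2.60 to 10.2 times, Clu exceeded Lrp1 in 6 of 6, by 7.48 to 13.6 times, and Lrp1 exceeded Lpl in 6 of 6, by 9.06 to 38.0 times. Apod and Clu changed places, with Apod the higher in 3 of 6 libraries and a ratio from 0.732 to 2.37. Lpl exceeded Abca1 in 4 of 6, and Abca1 exceeded Abcg1 in 3 of 6. The plot of TPM by library shows these steps.

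**Figure D1:**
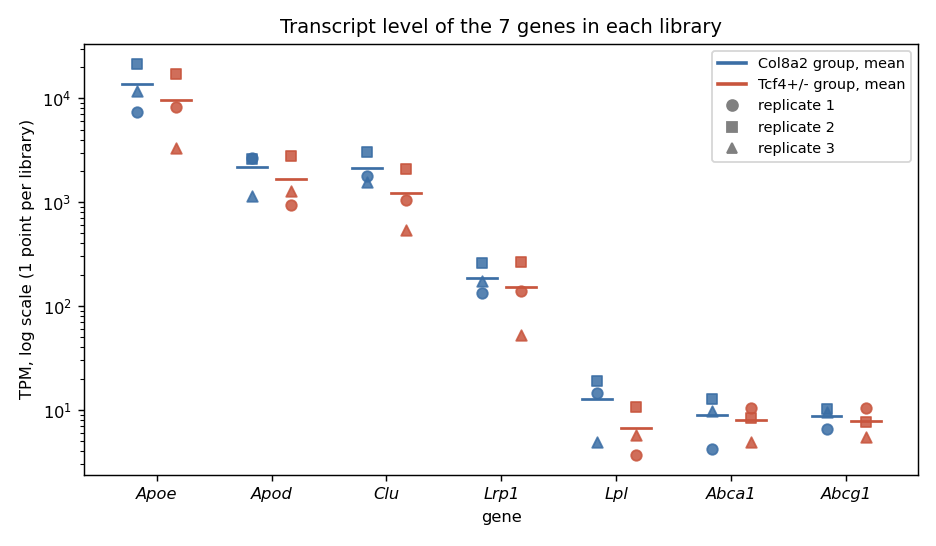
TPM of the 7 genes on a log axis, with 1 point per library, coloured by group and shaped by replicate, and a bar at each group's mean. Apoe lies between 3300.3 and 21582 TPM, Apod and Clu overlap with each other below it, Lrp1 lies between 51.9 and 267 TPM, and the remaining genes lie under 20 TPM, with the groups overlapping for every gene.

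Apolipoprotein E transcripts varied more between libraries of a group than between groups. Apoe stood at 6856, 15047 and 9807 CPM in Col8a2 replicates 1 to 3 and at 7106, 15477 and 3925 CPM in Tcf4+/- replicates 1 to 3. Replicate 2 was the highest of both groups, Tcf4+/- replicate 3 was the lowest library, and the groups overlapped. The fitted log2 fold change of the Tcf4+/- group against the Col8a2 group was -0.26 (SE 0.55). Its 95% interval ran from -1.50 to 0.98, which includes a change of 2-fold downward and nearly 2-fold upward. Apoe took from 0.330% to 2.16% of all TPM of a library.

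Clusterin had the lower fitted level of the abundant carriers in the Tcf4+/- group, without a separation of the groups. Clu stood at 2831, 3799 and 2262 CPM in the Col8a2 libraries and at 1536, 3225 and 1076 CPM in the Tcf4+/- libraries. Tcf4+/- replicate 2 lay within the Col8a2 range, while replicates 1 and 3 lay below it. The log2 fold change was -0.61 (SE 0.47, 95% interval -1.66 to 0.44). It kept its sign in all 19 other settings tried, between -1.17 without Tcf4+/- replicate 2 and -0.32 without Tcf4+/- replicate 3. Many of these settings refit the same 6 libraries, so the kept sign is not independent support.

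Apolipoprotein D followed another order of libraries than Apoe and Clu. Apod stood at 2261, 1702 and 888 CPM in the Col8a2 libraries and at 737, 2350.3 and 1433 CPM in the Tcf4+/- libraries. Col8a2 replicate 3 and Tcf4+/- replicate 1 were the low ones, so each group held low and high libraries and the ranges overlapped. The log2 fold change was -0.10 (SE 0.50, 95% interval -1.23 to 1.03).

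The receptor gene Lrp1 was high and low in the same libraries as Apoe. Its level was 814, 1339 and 1094 CPM in the Col8a2 libraries and 848, 1526 and 583 CPM in the Tcf4+/- libraries. As for Apoe, replicate 2 of each group was the highest and Tcf4+/- replicate 3 the lowest, and the ranges overlapped. The log2 fold change was -0.14 (SE 0.42, 95% interval -1.09 to 0.82). The transcript length that RSEM weighted by abundance for Lrp1 was 9414 bases in Tcf4+/- replicate 3 and 6198 to 7093 bases elsewhere. A longer weighted length lowers TPM at a given count. The TPM of Lrp1 in that library, 51.9, was further below the others (133 to 267) than its CPM was. So was that of Apoe (3300.3 against 7440 to 21582 TPM elsewhere) and of Clu (536 against 1037 to 3042 TPM). Their weighted lengths were 1131 and 1805 bases there and 1105 to 1145 and 1794 to 1801 bases elsewhere. Mitochondrial tRNA genes took 15.8% of TPM in that library. The part of length or of tRNA genes in these TPM values was not tested.

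The cholesterol pumps were the members whose group means differed least. Abca1, which exports cholesterol and phospholipid to lipid-poor apolipoproteins, stood at 41.8, 101 and 89.6 CPM in the Col8a2 libraries and at 99.1, 80.5 and 60.2 CPM in the Tcf4+/- libraries. Col8a2 replicate 1 was the lowest of all, and the Tcf4+/- range lay within the Col8a2 range. The log2 fold change was 0.05 (SE 0.37, 95% interval -0.77 to 0.86). Abcg1, which exports cholesterol to particles that already carry lipid, stood at 35.9, 45.5 and 41.1 CPM and at 46.8, 41.4 and 37.5 CPM in the same order. Its highest library exceeded its lowest by 1.304 times, and its log2 fold change was 0.04 (SE 0.28, 95% interval -0.58 to 0.65).

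Lipoprotein lipase had the widest spread of the 7 genes in CPM, though not in log2(TPM + 1), where the SD over the 6 libraries was 0.84 for Lpl, 0.97 for Apoe, 0.87 for Clu and 0.85 for Lrp1. Lpl stood at 56.5, 58.5 and 14.5 CPM in the Col8a2 libraries and at 13.5, 40.01 and 27.3 CPM in the Tcf4+/- libraries. Col8a2 replicate 3 and Tcf4+/- replicate 1 were the low libraries, as for Apod, and the ranges overlapped. Its log2 fold change, -0.68, had an SE of 0.56 (95% interval -1.92 to 0.56). The lowest estimated count behind any of these values was 636, for Lpl in Tcf4+/- replicate 1. The part of depth in their spread was not tested.

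**Figure D2:**
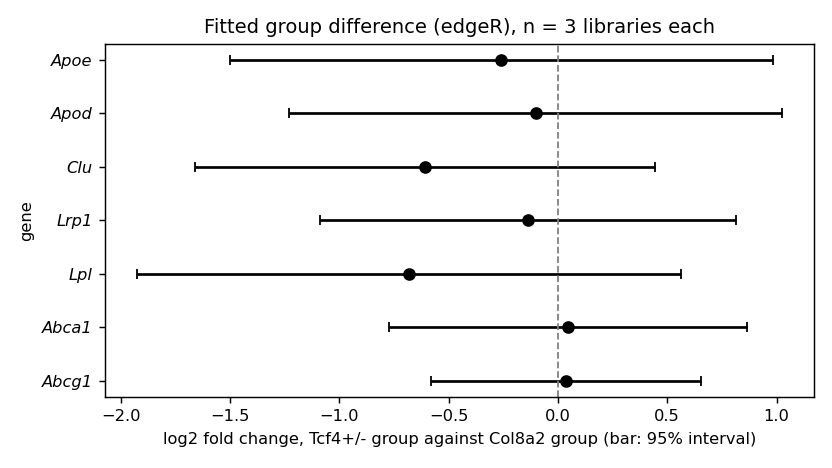
Fitted log2 fold change of each gene, Tcf4+/- group against Col8a2 group, with its 95% interval from the edgeR fit over all genes tested (n = 3 libraries each). All 7 intervals include 0. Clu and Lpl lie furthest to the left, at -0.61 and -0.68, and Abca1 and Abcg1 lie at 0.05 and 0.04.

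None of the 7 genes was called different between the groups by edgeR's quasi-likelihood test (0 of 7 at an adjusted p of 0.05, where 0% of the 17639 genes tested were called). At an unadjusted p under 0.05 there were also 0 of 7, against 2.42% of all genes. Lpl had an unadjusted edgeR p of 0.0376 without Col8a2 replicate 3, and Clu one of 0.0216 without Tcf4+/- replicate 2, neither passing adjustment. In these fits 839 and 656 of all genes tested had an unadjusted edgeR p under 0.05. Each fit left out the library that made the groups overlap for that gene, so these p-values are no support for a difference. DESeq2 called 0 of 7, against 0.508% of the 21043 genes to which it gave an adjusted p, and limma voom called 0 of 7. The groups did not overlap for 0 of 7, against 8.10% of all genes tested. Fitted values were below 0 for 5 of 7, against 49.9% of all genes, with a median log2 fold change of -0.14 beside 0.0011 over all genes.

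These signs depend on the scale and on single libraries. On the log2(TPM + 1) scale the median of all genes lay at -0.15, all 7 genes were fitted below 0 and their median was -0.53. Within TPM over protein-coding genes alone it was -0.37, with 6 of 7 below 0. Without Col8a2 replicate 2 the median on the count scale was 0.05, and without Tcf4+/- replicate 3 it was 0.09, with 3 of 7 below 0 in both cases. The log2 fold change of Apoe was 0.09 without either of these libraries, and that of Lrp1 was 0.05 and 0.13. Without Tcf4+/- replicate 2 the values of Apoe, Apod, Clu, Lrp1 and Lpl were -0.93, -0.56, -1.17, -0.59 and -1.06, each further from 0 by over 1.5 times. Apod took the other sign without Col8a2 replicate 1 (0.21) and without Tcf4+/- replicate 1 (0.22), and Apod and Lpl stood at -0.40 and -1.10 without Col8a2 replicate 3. Left out for their lens signal, Tcf4+/- replicates 2 and 3 left 1 library in that group, and Apod and Lpl then stood at -1.14 and -1.69 (a setting chosen after seeing the data).

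Variation across libraries, irrespective of group, was uneven among the members. The SD of log2 CPM over the 6 libraries was 0.93 for Lpl, 0.76 for Apoe, 0.69 for both Apod and Clu, 0.51 for Lrp1, 0.50 for Abca1 and 0.15 for Abcg1. Among the 9818 genes of at least 5 TPM the median SD was 0.46. Lpl stood at the 90.4th percentile of these genes, Apoe at the 82.5th and Abcg1 at the 1.80th.

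Pairs of members tracked each other closely while others did not. The CPM ratio of Apoe to Lrp1 stayed between 6.73 and 11.2 in all libraries, although Apoe itself spanned 3.94 times and Lrp1 2.62 times. That of Apod to Lpl stayed between 29.1 and 61.2, over a span of 3.19 times for Apod and 4.34 times for Lpl. The ratio of Apoe to Apod, in contrast, ran from 2.74 in Tcf4+/- replicate 3 to 11.04 in Col8a2 replicate 3. After each gene's own mean was taken away, Apoe and Lrp1 differed by a root mean square of 0.23 log2 units over the 6 libraries, Abca1 and Abcg1 and likewise Apoe and Clu by 0.33, Apod and Lpl by 0.38, and Abca1 and Lpl, the least alike, by 1.13. These groupings were read off the same values, so they are a description with no test. The SD of Abcg1 itself, 0.15, was smaller than its difference from Abca1.

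**Figure D3:**
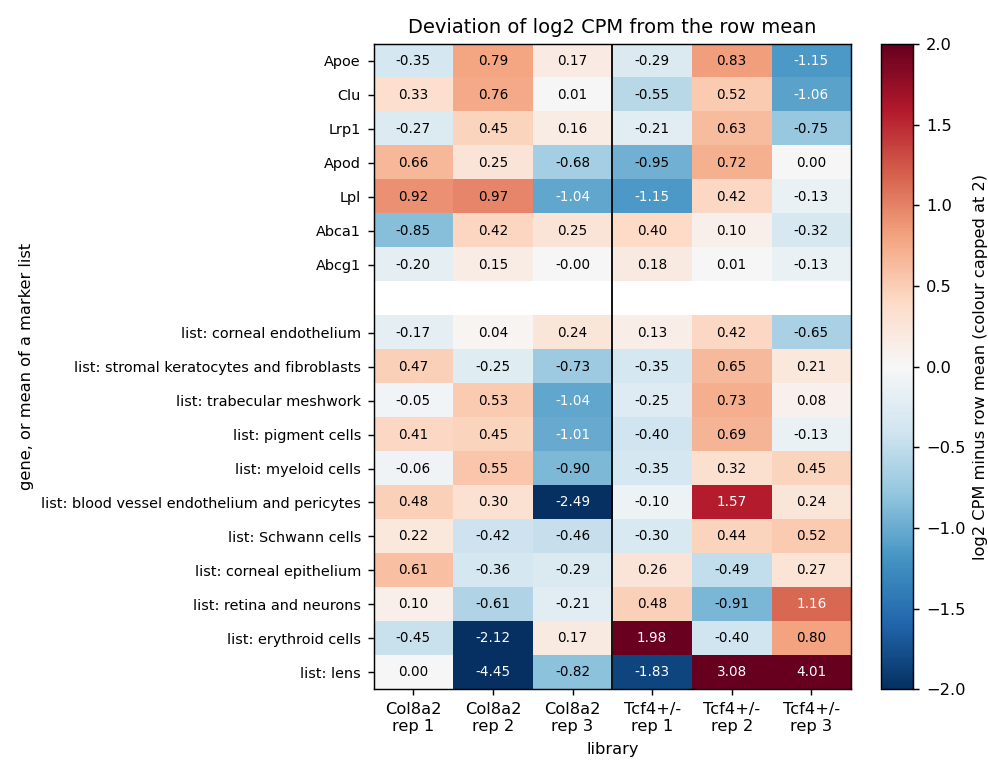
Deviation of log2 CPM from the mean of each row, for the 7 genes (top) and for the mean of 11 of the 12 marker lists (bottom, adipocytes left out), in the 6 libraries, with the groups parted by a line. Apoe, Clu and Lrp1 are high in replicate 2 of each group and low in Tcf4+/- replicate 3, Apod and Lpl are low in Col8a2 replicate 3 and Tcf4+/- replicate 1, and Abcg1 hardly varies.

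Marker lists of other cells moved with some members. Col8a2 replicate 3 and Tcf4+/- replicate 1, the low libraries of Apod and Lpl, were also the lowest in mean log2 CPM for 5 of 12 marker lists, namely stromal keratocytes and fibroblasts, trabecular meshwork, pigment cells, myeloid cells, and blood vessel endothelium with pericytes. By summed CPM, Col8a2 replicate 3 was the lowest library for all 5, but Tcf4+/- replicate 1 was the next lowest only for trabecular meshwork, pigment and myeloid markers. For myeloid markers it was nearly level with Tcf4+/- replicate 2 (423.5 and 423.8 CPM). The stromal sum was lower in Col8a2 replicate 2 (12181 CPM) than in Tcf4+/- replicate 1 (13027 CPM), and the vessel sum was lower in Tcf4+/- replicate 3 and Col8a2 replicate 2 (176 and 198 CPM) than in Tcf4+/- replicate 1 (213 CPM). Summed trabecular meshwork markers, 7 of 8 of them found and none at 0, stood at 778 and 956 CPM in these libraries and at 1530 to 2314 CPM in the others (778 to 2102 CPM over the Col8a2 group and 956 to 2314 CPM over the Tcf4+/- group). Pigment cell markers, 7 of 7 found and none at 0, stood at 347 and 594 CPM against 744 to 1524 CPM (347 to 1174 CPM and 594 to 1524 CPM by group). Myeloid markers, 15 of 15 found and none at 0, summed to 284 to 945 CPM by Col8a2 library and 423 to 703 CPM by Tcf4+/- library. Gpihbp1, which holds lipoprotein lipase on the wall of capillaries, was at 0 in 4 of the 6 libraries. Of the 7 adipocyte markers, Lep and Plin1 were at 0 in every library and Adipoq and Cidec in 4 of 6. The other 3 had counts in all 6 libraries. Fabp4 stood at 0.608 to 10.6 CPM, Retn at 0.158 to 1.32 CPM and Car3, which is in the corneal endothelium list as well, at 3565 to 6228 CPM. The summed level of the adipocyte list was 3579 to 6230 CPM over the Col8a2 group and 4437 to 5701 CPM over the Tcf4+/- group. The part of these cells in the levels of Apod and Lpl was not tested.

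By mean log2 CPM, the corneal endothelium list was lowest in Tcf4+/- replicate 3, the library lowest in Apoe, Clu and Lrp1. Its mean was 7.93 there against 8.41 to 9.002 in the others. It was the only 1 of the 12 lists that was lowest there. This held for the list and not for each of its 15 markers, some of which were higher there than in most other libraries. That library also had the highest lens level, and the part of either in the low Apoe, Clu and Lrp1 values was not tested. In Tcf4+/- replicate 2, which was lens-rich as well, Apoe and Lrp1 were at their highest.

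The genes whose profiles over the 6 libraries came closest to a member's were taken from 6922 or 6923 other protein-coding genes of at least 10 TPM. Likeness is the root mean square difference of log2 CPM after each gene's own mean was taken away, so a smaller value is closer. It is not scaled to the SD of the genes. A gene that hardly varies, such as Abcg1 (SD 0.15), is thus close to any other such gene, and values of different members are not on a like footing. For Apoe they were Plod3, a collagen lysyl hydroxylase, at 0.073 log2 units, Tmem115 at 0.13 and Tmem176b at 0.14. For Lrp1 they were Fgfr1, a receptor of fibroblast growth factors, at 0.075, Gnptg at 0.080 and the laminin chain gene Lamc1 at 0.093. Clu was followed by Icam1, an adhesion receptor for leukocytes, at 0.13, the ubiquitin ligase gene March6 at 0.16 and the TNF receptor gene Tnfrsf1a at 0.17.

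For Apod the closest were Snapc3 at 0.15, Pdgfrl at 0.19 and the cysteine protease gene Ctsk at 0.21. Those of Lpl lay further off, with Slc4a5, a bicarbonate transporter, at 0.27, Tmem97 at 0.29 and Podxl2 at 0.30. Abca1 was matched by Elk4 at 0.10 and Polg at 0.12, and Abcg1 by Gtpbp4 at 0.052, Ctbp1 at 0.069 and Pla2g5 at 0.074. With log2(TPM + 1) in place of log2 CPM, 8 of the 21 genes taken by the rule were taken again, with 2 of 3 for Apoe, Apod and Lpl, 1 of 3 for Clu and Abca1 and 0 of 3 for Lrp1 and Abcg1.

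The wider set of lipoprotein genes was read from 8 lists written by role. Of 150 genes written, 117 could be tested, and 0 were called by edgeR, DESeq2 or limma voom. Over all genes, edgeR called 0% of 17639 and DESeq2 0.508% of 21043. A count of 0 called by edgeR in a list below is therefore no result about that list. At an unadjusted edgeR p under 0.05 there were 4 of 117 (3.42%), near the share of all genes given above. The groups did not overlap for 9 of 117 (7.69%), near the 8.10% of all genes tested. Fitted values were below 0 for 71 (60.7%) and above 0 for 46, against 49.9% below 0 over all genes. The median log2 fold change was -0.14 beside 0.0011 over all genes.

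Other apolipoproteins were few and low. Of 23 genes written, 7 could be tested, with 0 called, 3 fitted higher, 4 lower and a median log2 fold change of -0.00066. Apoc1, a small apolipoprotein of plasma lipoproteins and a neighbour of Apoe in the genome, was the highest at a mean of 48.1 TPM over the 6 libraries. It stood at 16.5, 5.49 and 6.78 CPM in the Col8a2 libraries and at 9.59, 10.4 and 21.2 CPM in the Tcf4+/- libraries. It was thus highest in Tcf4+/- replicate 3 and lowest in Col8a2 replicate 2, whereas Apoe was lowest in the former and second highest in the latter. Apol9a stood at 28.2 ± 8.61 CPM across Col8a2 libraries and 10.9 ± 8.13 CPM across Tcf4+/- libraries (SD, n = 3 each). Its groups did not overlap, its log2 fold change was -1.37 (SE 0.68) and it was not called (edgeR adjusted p = 0.99988). Apol7a stood at 26.6 ± 21.7 and 26.6 ± 11.7 CPM. Apol9a and Apol9b are near-identical copies, and reads may be shared between them. Apol9b stood at 4.46, 9.75 and 0.138 CPM in the Col8a2 libraries and at 1.21, 1.40 and 5.20 CPM in the Tcf4+/- libraries. Its groups overlapped, with a log2 fold change of -0.88 (SE 1.28), so the separation seen for Apol9a was not seen for its copy. The plasma apolipoprotein genes Apob, Apoa4, Apoa5, Apoh and Apom had no counts in any library.

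Among other receptors of the LDL receptor family and their helpers, 21 of 22 genes could be tested, with 0 called, 10 fitted higher and 11 lower, at a median of -0.17. Lrpap1, the chaperone that keeps LRP1 from binding ligand inside the cell, stood at 408 ± 123 CPM across Col8a2 libraries and 416 ± 239 CPM across Tcf4+/- libraries (SD, n = 3 each). Lrp10 stood at 256 ± 64.5 and 226 ± 92.1 CPM and Ldlrad3 at 80.1 ± 31.7 and 108 ± 30.2 CPM. For all 3 the difference between the groups was smaller than or about as large as the SD within them.

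Ligands of LRP1 were abundant in these libraries. A2m, alpha-2-macroglobulin, a protease trap cleared by LRP1, stood at 3338 ± 932 CPM across Col8a2 libraries and 3511 ± 993 CPM across Tcf4+/- libraries (SD, n = 3 each), and App, the amyloid precursor protein gene, at 1059 ± 232 and 976 ± 646 CPM. Calr, calreticulin, stood at 381 ± 102 and 335 ± 87.9 CPM. Of the 16 genes of this list tested, 0 were called, with 6 fitted higher and 10 lower at a median of -0.13.

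Scavenger receptors, which take up modified lipoproteins, had 12 of 14 genes tested, 0 called, 7 fitted higher and 5 lower, at a median of 0.15. Scarb2 of the lysosomal membrane stood at 135 ± 37.4 CPM across Col8a2 libraries and 113 ± 55.5 CPM across Tcf4+/- libraries, Scarf2 at 118 ± 23.7 and 134 ± 75.9 CPM, and the macrophage gene Cd68 at 32.4 ± 21.7 and 24.9 ± 4.62 CPM (SD, n = 3 each). Stab1 and Scarf1, named after their values were seen for an unadjusted p under 0.05 (0.0262 and 0.0370, edgeR), had log2 fold changes of 1.65 and 2.58, without passing adjustment. Scarf1 stood at 1.17, 1.59 and 0.158 CPM in the Col8a2 libraries and at 3.52, 5.31 and 8.68 CPM in the Tcf4+/- libraries. Stab1 stood at 5.93 CPM in Tcf4+/- replicate 1 and at 19.6 and 23.6 CPM in replicates 2 and 3, against 3.08 to 6.65 CPM in the Col8a2 libraries. Both genes are also expressed by vascular endothelium, whose marker sum was 94.8 to 240 CPM across Col8a2 libraries and 176 to 453 CPM across Tcf4+/- libraries, from 11 of 11 markers found, and its part in these values was not tested.

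Other lipid transporters of the ABC class had 12 of 16 genes tested, 0 called, 7 fitted higher and 5 lower, at a median of 0.13. Abca2 stood at 93.1 ± 35.3 CPM across Col8a2 libraries and 90.5 ± 40.5 CPM across Tcf4+/- libraries, Abca4 at 68.1 ± 54.8 and 76.8 ± 47.2 CPM and Abcg2 at 19.5 ± 5.30 and 16.7 ± 10.03 CPM (SD, n = 3 each). Each of these differences was smaller than the SD within a group.

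Lipases, their regulators and lipid transfer proteins had 16 of 20 genes tested, 0 called, 4 fitted higher and 12 lower, at a median of -0.29. Mgll, monoglyceride lipase, stood at 361 ± 165 CPM across Col8a2 libraries and 263 ± 32.2 CPM across Tcf4+/- libraries, Sel1l, which lipoprotein lipase needs to leave the endoplasmic reticulum, at 201 ± 68.3 and 176 ± 61.0 CPM, and Pltp, the phospholipid transfer protein, at 136 ± 11.9 and 166 ± 56.3 CPM (SD, n = 3 each).

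On the sterol-sensing side edgeR made no call either, where it called 0% of all genes tested. LXR and RXR genes with LXR targets other than the members had 17 of 18 genes tested, 0 called, 6 fitted higher and 11 lower, at a median of -0.13. Srebf1, the regulator of fatty acid synthesis and a target of LXR, stood at 255 ± 69.6 CPM across Col8a2 libraries and 286 ± 71.6 CPM across Tcf4+/- libraries, and Scd2, a fatty acid desaturase, at 434 ± 51.4 and 363 ± 165 CPM (SD, n = 3 each). Cholesterol transport and storage genes had 19 of 22 tested, 0 called, 6 fitted higher and 13 lower, at a median of -0.14. Tspo of the outer mitochondrial membrane stood at 179 ± 26.0 and 149 ± 15.1 CPM, Npc2, the lysosomal cholesterol carrier, at 206 ± 62.1 and 187 ± 27.7 CPM, and Plin3, a lipid droplet coat protein, at 132 ± 19.3 and 132 ± 16.2 CPM. Gramd1c, of the sterol transfer family, had an unadjusted edgeR p of 0.0366 and was named after its values were seen, with 19.2, 11.6 and 4.72 CPM in the Col8a2 libraries and 4.70, 3.67 and 3.38 CPM in the Tcf4+/- libraries. The strip plot of all these genes shows lists centred near 0.

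**Figure D4:**
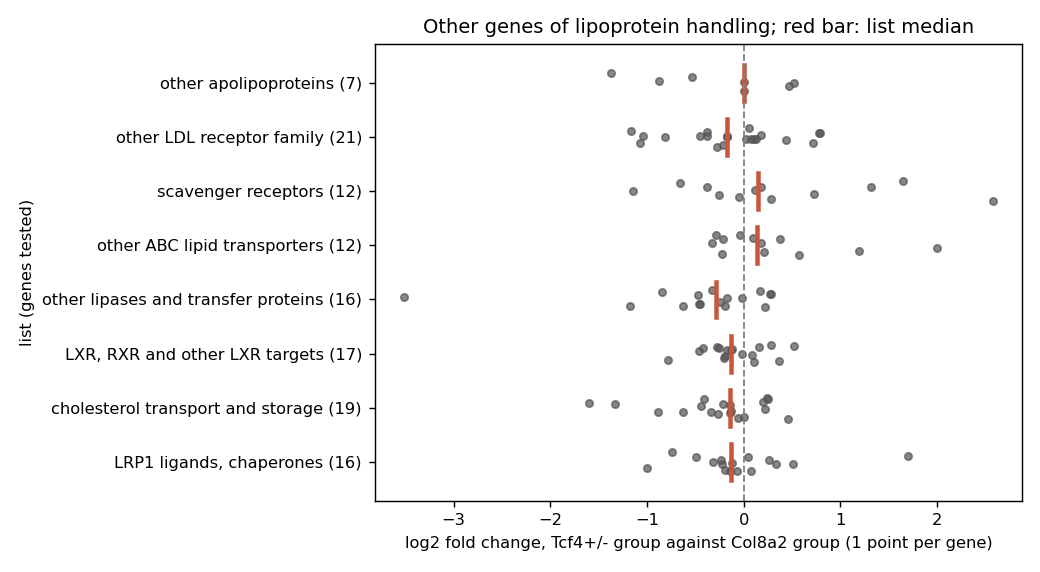
Fitted log2 fold changes, Tcf4+/- group against Col8a2 group, of the genes tested in 8 lists of lipoprotein handling, with 1 point per gene (shifted up or down at random for display) and a bar at each list's median. Medians lie between -0.29 for lipases and transfer proteins and 0.15 for scavenger receptors.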

How the data were processed

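RNA extraction used the RNeasy Micro Kit, and libraries were made with SMART-Seq HT and Nextera XT, per the labels' protocols, which do not describe a strand-keeping kit. FastQC 0.12.1, fastp 0.23.2, STAR, RSEM, DESeq2 and build GRCm39 are named in the submitters' processing notes. The authors deposited expected counts per gene, not scaled to depth (9.97% are not whole), and TPM, scaled to length and to a fixed sum. Lengths are those of the file headers. In Tcf4+/- replicates 2 and 3, mitochondrial tRNA genes take 15.6% and 15.8% of TPM, against 0% elsewhere, which lowers other TPM values there. Length minus effective length, which follows the fragment or read length in the estimate, is 155 and 150.1 bases in these 2 libraries and 211 to 241 bases in the others, and its part in the group differences was not tested.

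Of the identifiers, 51933 were matched to a symbol of GENCODE M21 (build GRCm38), used for names and gene types, and 5247 were not. In it, no exon of another gene overlaps those of the 7 members. Promoter sequences are RefSeq's.

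Expected counts were rounded, filtered with filterByExpr, TMM-scaled and tested with edgeR 4.0.16 in R 4.3.3 (quasi-likelihood, robust, group as the only term, Benjamini-Hochberg over 17639 genes, threshold 0.05). Log2 CPM used a prior count of 2. DESeq2 1.42.0 and limma 3.58.1 were alternatives. An exact permutation test of 3 against 3 cannot give a p below 0.1, so none was run. The scripts were tested on simulated data. No library was a duplicate of another of its group within counting error, and libraries of different groups were not compared in this way. The members and lists were chosen with earlier results of these data known. Named are Tcf4, the members, the 3 list genes of highest mean TPM (none passed the threshold) and the 3 most like genes per member. Some genes that the rule or the counts would name are not reported here. The rule's Col8a2 stood at 4529 ± 1344 and 4430.3 ± 1979 CPM (SD, n = 3 each). It also takes the 2 highest markers per list, whose summed levels are given in their place.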

Additional observations from a re-analysis of the deposited data

How the results depend on the processing

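Across 18 planned settings and 1 added after seeing the data, 0 of the 7 members and 0 of the partner genes tested were called in any. Over all genes, DESeq2 called 76 higher and 31 lower, and without Col8a2 replicate 3 edgeR called 2 higher and 2 lower, against 0 with all libraries. Leaving out 1 library at a time gave 0 to 2 calls in each direction and a median of the members from -0.59 to 0.09. It was positive without Col8a2 replicate 2 (0.05) and without Tcf4+/- replicate 3 (0.09) and negative in the other settings. Many of the 19 settings refit the same 6 libraries and are not independent of each other. Clu and Lpl kept a negative sign in all 19, Apoe, Apod and Lrp1 changed sign in 2 each, Abca1 in 4 and Abcg1 in 5. The cause was not tested. Libraries with the same replicate number deviated together for number 2 (r across genes 0.41) but not for numbers 1 and 3 (-0.14 and -0.03). Libraries of unlike number did so too, with r 0.36 for Col8a2 replicate 1 and Tcf4+/- replicate 3. For Col8a2 replicate 3 and Tcf4+/- replicate 1 it was 0.18. The numbers were therefore not taken to pair the samples. With the replicate block, edgeR called 0 genes in either direction, 0 members and 0 partner genes, and the median of the members was -0.22. The SE of the members ran from 0.28 for Abcg1 to 0.56 for Lpl, and the part of depth in it was not tested.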
